A study of Mus musculus with 24 samples.

Results

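The liver of mice lacking Atg5 and Tsc1 together was compared with wild-type liver across all genes. The comparison used 8 of the 24 libraries of the series, chosen by genotype label alone: 4 labelled hepatic Atg5/TSC1 double knockout (DKO) and 4 labelled wild type (WT). All 24 libraries are of liver RNA from C57BL/6J mice aged 2 months. The other 4 genotypes have 4 libraries each and serve here only to place the DKO values. They are labelled hepatic Atg5 KO, hepatic TSC1 KO, hepatic Atg5/TSC1/p62 TKO and hepatic Atg5/TSC1/Nrf2 TKO, the last pair being triple knockouts (TKO) that carry the same pair of deletions as the DKO and a further one. The labels call the deletions hepatic but name no Cre driver, deleted exon or recombination check. Sex, litter, batch and day are not among them, nor whether 2 libraries can share an animal, so a p-value here reflects only how these samples spread.

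Autophagy encloses proteins and organelles in autophagosomes and delivers them to lysosomes, and ATG5 is part of the machinery that attaches LC3 to the growing membrane. TSC1 works with TSC2 to restrain Rheb and so mTORC1, a kinase complex that promotes growth and holds back autophagy and the transcription of lysosome genes. p62, encoded by Sqstm1, is a cargo receptor that is itself degraded by autophagy and that can bind KEAP1, the protein that keeps the antioxidant transcription factor NRF2 (Nfe2l2) low. In liver, hepatocytes make most plasma proteins and detoxifying enzymes, while bile duct cells (cholangiocytes) and the small ducts that form in injured liver carry keratins, claudins and osteopontin.

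Total counts were 11283916 to 11675002 per library in WT and 11403175 to 13007760 in DKO. Levels are CPM (counts scaled to a common library total) on totals scaled by TMM, a method that sets the bulk of genes level between libraries, and are given as mean ± SD or per library with n = 4 per group. Scaling bears on every direction below. The 20 genes with the most counts made up 21 to 26.7% of each WT library and 13.3 to 13.7% of each DKO library. Whether this is why the scalings differ was not tested. The median log2 fold change (DKO minus WT) over all genes was 0.08 with TMM and 1.07 with total counts alone, so each gene lies about 1 log2 unit higher on total counts. The 4 WT libraries correlated pairwise at 0.9781 to 0.9913 over genes, and the 4 DKO libraries at 0.9724 to 0.983. DKO libraries 1 and 2 had at least 1 count for 26848 and 25884 genes, DKO libraries 3 and 4 for 23201 and 23424, and the WT libraries for 19923 to 20739.

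Most of the measured transcriptome differed between DKO and WT liver. Of 15851 genes tested, 10987 (69.3%) were called at an adjusted p under 0.05, 5873 of them higher in DKO (37.1%) and 5114 lower (32.3%). With total counts alone 11151 were called higher (70.3%) and 1770 lower (11.2%). All of those 1770 were also called lower with TMM, whereas 1296 genes (8.18%) were lower with TMM and higher with total counts. Changes were large: 2611 genes rose and 1179 fell more than 4-fold, and 527 rose and 166 fell more than 32-fold. In 9858 genes (62.2%) every library of 1 group was above every library of the other, in 5367 with DKO on top (33.9%) and in 4491 with WT on top (28.3%).

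The genes that fell had held most of the counts. Genes called lower took 81.0 to 82.1% of the counts in each WT library and 41.7 to 45.6% in each DKO library, and the share of the 1770 genes lower under both scalings went from 57.8 to 61.9% in WT to 17.9 to 20.4% in DKO. Genes called higher took 6.14 to 6.83% in WT and 31.9 to 35.2% in DKO. When tested genes were split into 5 equal bins by mean level, 20.1% of the most abundant bin were called higher and 59.8% lower, against 43.1% and 16.1% in the least abundant bin. Protein-coding genes followed the whole table, with 39.4% higher and 32.8% lower.

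**Figure D1:**
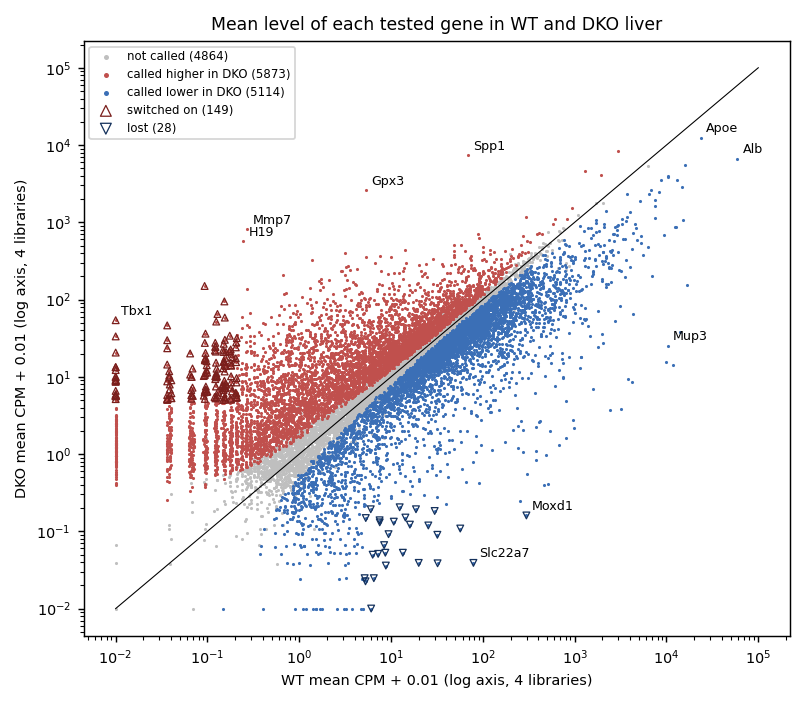
Mean level in WT (x axis) and DKO (y axis) of each tested gene, in CPM on TMM-scaled totals plus 0.01 on log axes, with 4 libraries per group. Genes on the diagonal are equal in both groups. Spp1, Gpx3, Mmp7 and H19 lie far above it, Alb and Mup3 below it, and open triangles mark genes near 0 in one group and at or above 5 CPM in the other.

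The targeted genes were read first. Atg5 (chr10:44268358-44364291, GRCm38) was at 31.4, 27.7, 25.5 and 22.5 CPM in WT libraries 1 to 4 and at 24.1, 25.0, 20.03 and 24.4 CPM in DKO, a log2 fold change of -0.19 ± 0.12 (SE, edgeR adjusted p = 0.17) with TMM and a higher call of 0.79 with total counts. Tsc1 (chr2:28641228-28691167) was at 35.7, 34.8, 36.7 and 33.1 CPM in WT and at 53, 24.9, 31.0 and 37.3 CPM in DKO (0.06 ± 0.19, edgeR adjusted p = 0.79, and a higher call of 1.05 with total counts). Both genes overlapped between the groups. A count summed over a gene reads also the exons that a deletion leaves in place, so these gene-level counts do not check the labels.

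The 2 partners of the pathway did move. Sqstm1 was at 555, 557, 690 and 508 CPM in WT and at 1000, 1047, 1061 and 728 CPM in DKO (log2 fold change 0.73 ± 0.25, edgeR adjusted p = 0.013). Mrnip lies across it in the opposite orientation, and the sources used here do not say whether counting used strand. Nfe2l2 was at 63.3, 66.4, 80.8 and 56.5 CPM in WT and at 99.7, 97.2, 92.7 and 162 CPM in DKO (0.76 ± 0.19, edgeR adjusted p = 0.0012). All 4 DKO libraries lay above all 4 WT libraries for both genes.

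The genes that lost the most counts encode plasma proteins, and those that gained the most encode secreted, antioxidant and iron-storage proteins. Alb (albumin) was at 62030, 61610, 67700 and 43340 CPM in WT and at 6680, 7328, 5774 and 6796 CPM in DKO, a log2 fold change of -3.14 ± 0.28. Serpina3k, a protease inhibitor of plasma, fell from 16620 ± 1420 to 153 ± 116 CPM, and Serpina1e, an alpha-1-antitrypsin copy, from 14150 ± 2240 to 38.1 ± 29.6 CPM. The groups were apart for all 3 genes by much more than their spread. Apoe, which carries lipids on lipoproteins, moved with the scaling: it was lower with TMM (23540 ± 2230 against 12450 ± 1950 CPM, -0.92 ± 0.17) and not called with total counts (0.06).

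Spp1 (osteopontin, a secreted matrix protein of ducts and macrophages) stood at 73.7, 73.9, 50.3 and 76.1 CPM in WT and at 7668, 6547, 9291 and 6038 CPM in DKO, a log2 fold change of 6.75 ± 0.34. Clu (clusterin, a secreted chaperone) rose from 2964 ± 744 to 8322 ± 786 CPM. Gstm1, a glutathione transferase, went from 1303 ± 310 to 4650 ± 1080 CPM. Gpx3, the glutathione peroxidase of plasma, had been nearly absent, at 6.23, 4.84, 4.33 and 5.84 CPM in WT, and reached 2494, 2440, 2340 and 3079 CPM in DKO (8.93 ± 0.38). Fth1 (ferritin heavy chain) rose from 1947 ± 249 to 4131 ± 922 CPM.

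**Figure D2:**
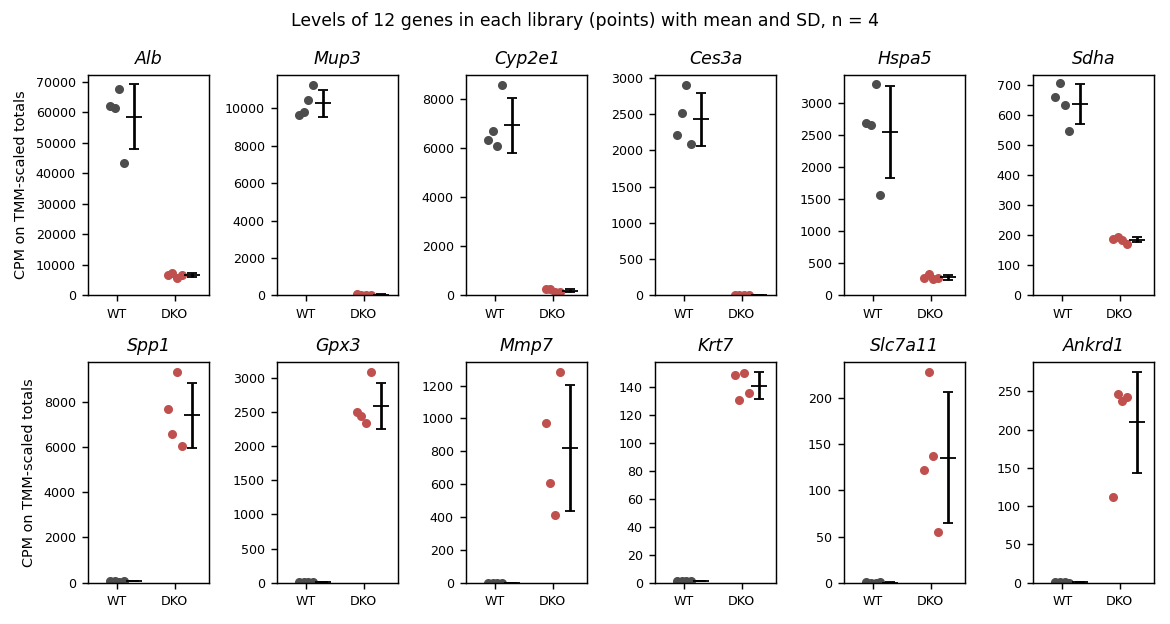
CPM on TMM-scaled totals (y axes, linear from 0) of 12 genes in each of the 4 WT and 4 DKO libraries (points), with mean and SD beside them. The top row shows genes that fell and the bottom row genes that rose, and in none of the 12 panels do the groups overlap. Mmp7 and Slc7a11 vary widely between DKO libraries, at 413 to 1280 and 55.0 to 228 CPM.

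The largest increases were in genes close to silent in WT liver. Mmp7 (matrilysin, a protease secreted by ductal epithelium, ENSMUSG00000018623, chr9:7692090-7699585) was at 0.11, 0.23, 0.21 and 0.49 CPM in WT and at 973, 609, 413 and 1280 CPM in DKO, a log2 fold change of 11.59 ± 1.12 (edgeR adjusted p = 1.8e-08). H19, an imprinted non-coding RNA of fetal liver (chr7:142575529-142578143), was at 0.57, 0, 0 and 0.36 CPM in WT and at 519, 710, 776 and 269 CPM in DKO (11.22 ± 1.27, edgeR adjusted p = 1.8e-07). DKO libraries 1 and 4 were highest for Mmp7 and lowest for H19, so the 2 genes did not rank the DKO libraries alike. Cldn4 (claudin 4, a tight junction protein of ducts) was at 0.23, 0, 0.11 and 0 CPM in WT, 3 counts in all, and at 192, 109, 164 and 134 CPM in DKO, a ratio of 1758 with a 95% exact counting interval of 601 to 8525.

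Some had no count at all in WT. Tbx1, a developmental T-box transcription factor (chr16:18580979-18590671), had 0 counts in all 4 WT libraries and 59.9, 40.2, 69.7 and 46.3 CPM in DKO, which is at least 636-fold higher when the 4 WT libraries together are set to 3 counts. Rnase1, a secreted ribonuclease, had 0 counts in WT and 17.7, 35.3, 56.9 and 23.5 CPM in DKO (at least 393-fold higher). Wnt7a, a Wnt ligand of epithelia, had 0 counts in WT and 14.6, 10.1, 13.9 and 14.7 CPM in DKO (at least 157-fold higher). Further genes at 0 counts in WT were at least 144-fold (Rasgrf1), 118-fold (Apela and Uchl1), 107-fold (Lrp8), 105-fold (Myom2) and 101-fold (Meltf) higher. Counting intervals and floors cover counting error only.

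The promoter of Cldn4 is shown because Cldn4 took the most DKO counts among the genes that came on from near 0, and because its sequence holds 2 matches to the AP-1 letters. The 250 bases before its RefSeq start (GRCm38.p6, chr5:134946935-134947184, minus strand) are printed 5′ to 3′, with matches to TGANTCA on either strand in capitals, at 240 and 158 bases before the start.
Cldn4: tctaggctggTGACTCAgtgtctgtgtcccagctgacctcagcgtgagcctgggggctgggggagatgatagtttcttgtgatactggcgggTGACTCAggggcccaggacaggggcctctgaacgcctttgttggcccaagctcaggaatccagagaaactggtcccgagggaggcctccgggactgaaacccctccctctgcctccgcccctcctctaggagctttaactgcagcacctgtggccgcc
These letters occur in 6.75% of the 32851 RefSeq promoters of this length and in 14 of 138 promoters (10.1%) of the genes that came on. Genes that rose more than 32-fold had them in 39 of 459 promoters (8.5%), and genes that fell more than 32-fold in 11 of 144 (7.64%). A match is a description of letters and not a binding site.

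Genes that came on from near 0 were collected by level: a mean under 0.2 CPM in WT and at least 5 CPM in DKO. There were 149, on 20 chromosomes, of which 135 are protein coding, 21 had no WT count, 51 had 1 to 3 WT counts over the group, and 147 did not overlap between the groups. Because the levels chose them, their difference from WT is a description. Mfap2 lay just inside the WT limit (0.199 CPM) and Trim59 just outside (0.2 CPM), Fstl4 just inside the DKO limit (5.0 CPM) and Krt80 just outside (4.99 CPM). After Cldn4 the most counts (not adjusted for transcript length) went to Myo5c, a myosin motor, at 94.5 ± 16.8 CPM, Tff2, a trefoil peptide of mucous epithelium, at 65.0 ± 14.3 CPM, and Gpnmb, a lysosomal membrane glycoprotein of macrophages, at 58.4 ± 35.1 CPM. Gpnmb was at 44.0, 110, 46.7 and 32.7 CPM in the DKO libraries, so library 2 set much of its mean. Clic6 (a chloride channel protein), S100b (a calcium-binding protein), Bex1, Bex2 and Bex4 (small X-linked adaptors) and Pappa (a protease of IGF-binding proteins) followed, at means of 26.7 to 51.9 CPM.

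The other genotypes placed these levels, with the limit that each comparison uses the same DKO libraries that chose the genes. The 149 genes had a median of 9.94 CPM in DKO and 0.112 in WT, with 2.6 in the p62 TKO, 1.45 in the Nrf2 TKO, 0.874 in the Atg5 KO and 0.511 in the TSC1 KO. A mean of 5 CPM was reached by 13 of them in Atg5 KO, 3 in TSC1 KO, 42 in p62 TKO and 18 in Nrf2 TKO. DKO was called higher than Atg5 KO for 135 (29.2% of all genes tested) and higher than TSC1 KO for 142 (36.6% of all). The p62 TKO was called lower than DKO for 117 (21.5% of all) and the Nrf2 TKO for 139 (29.2% of all). Cldn4 stood at 150 CPM in DKO, 14.2 in the p62 TKO, 6.96 in the Nrf2 TKO, 4.63 in the Atg5 KO and 2.34 in the TSC1 KO.

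A few of them had higher means in the single Atg5 KO than in DKO. Gpx2, an epithelial glutathione peroxidase, was at 75.5 CPM in the Atg5 KO and 46.3 in DKO, with 0.76 in the TSC1 KO and 0.142 in Nrf2 TKO, and its DKO and Atg5 KO levels did not differ beyond the threshold (log2 fold change -0.71, edgeR adjusted p = 0.16). Slc1a1, a glutamate and cysteine transporter, was at 78.6 CPM in Atg5 KO and 10.7 CPM in DKO (-2.89, edgeR adjusted p = 4.8e-06), and Apela, a peptide ligand of the apelin receptor, at 59.4 and 10.1 CPM (-2.56, edgeR adjusted p = 0.00042). Sprr1a, Car13 and Tinag were also called lower in DKO than in Atg5 KO, which makes 5 of the 149. Against the other genotypes the exceptions were single genes: Gm10804 was called lower in DKO than in TSC1 KO (5.80 against 35.2 CPM), Slc1a1 higher in p62 TKO (24.9 CPM) and Cyp2b9 higher in Nrf2 TKO (81.1 against 6.27 CPM). Without DKO libraries 1 and 2, in which more genes had a count, 157 genes met the same limits in place of 149.

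Some of the deepest decreases were in genes of transport and of steroid and lipid metabolism. Slc22a7, an organic anion transporter (ENSMUSG00000067144, chr17:46432183-46438457), was at 101, 127, 30.02 and 56.9 CPM in WT and at 0.057, 0.059, 0 and 0 CPM in DKO, 2 counts in all, a WT to DKO ratio of 2881 with a 95% exact counting interval of 797 to 23800. Moxd1, a copper-dependent monooxygenase (chr10:24223517-24302790), was at 270, 522, 39.2 and 360 CPM in WT and at 0.40, 0, 0.052 and 0.15 CPM in DKO (-10.87 ± 1.22, edgeR adjusted p = 1.9e-07). Both vary several-fold within WT, where library 3 is lowest, and neither overlaps. Hsd3b5, a steroid dehydrogenase, was at 199, 271, 378 and 177 CPM in WT and at 0.57, 0.059, 0.21 and 0.10 CPM in DKO (-10.05 ± 1.33). Elovl3, a fatty acid elongase, was at 496, 649, 860 and 46.6 CPM in WT and at 1.14, 0.12, 0.26 and 0.10 CPM in DKO (-10.30 ± 1.67), with WT library 4 far below the other WT libraries. Ces3a, a carboxylesterase of lipid handling, was at 2206, 2517, 2900 and 2085 CPM in WT and at 10.4, 0.94, 1.35 and 2.15 CPM in DKO (-9.36 ± 0.83), and DKO library 1 held the most of what was left.

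Genes lost almost fully were collected by the mirror rule, at least 5 CPM in WT and under 0.2 CPM in DKO. There were 28, of which 16 are protein coding and 10 lie on chromosome 4, where the major urinary protein (Mup) cluster is, and none overlapped between the groups. 9030616G12Rik lay just inside the DKO limit (0.195 CPM) and Gm31333 just outside (0.205 CPM), Mup5 just inside the WT limit (5.14 CPM) and Hist1h2bq just outside (4.99 CPM). Beside Slc22a7 and Moxd1 they include Ugt2b38, a glucuronosyltransferase (31.9 to 0.080 CPM), Slc22a28, a further organic anion carrier (12.1 to 37.2 CPM in WT, mean 0.029 in DKO), S1pr5, a sphingosine phosphate receptor (16 to 0.112 CPM), and Ces4a (6.48 to 0.015 CPM). Mup13, Mup15, Mup2, Mup4 and Mup5 are among the 28, but Mup copies are near-identical and the counting could split reads between them. Their medians were 10 CPM in WT and 0.081 in DKO, with 6.18 in the TSC1 KO, 3.72 in the Atg5 KO, 2.51 in the Nrf2 TKO and 0.58 in the p62 TKO. DKO, whose libraries chose the genes, was called lower than Atg5 KO for all 28 (27.3% of all genes tested) and lower than TSC1 KO for 26 (30.0% of all), and the p62 TKO was called higher than DKO for 20 (22.3% of all) and the Nrf2 TKO for 25 (26.7% of all). The number depended on DKO library 1: without it 44 genes met the limits, without libraries 1 and 2 together 50, and on libraries 1 and 2 alone 24.

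**Figure D3:**
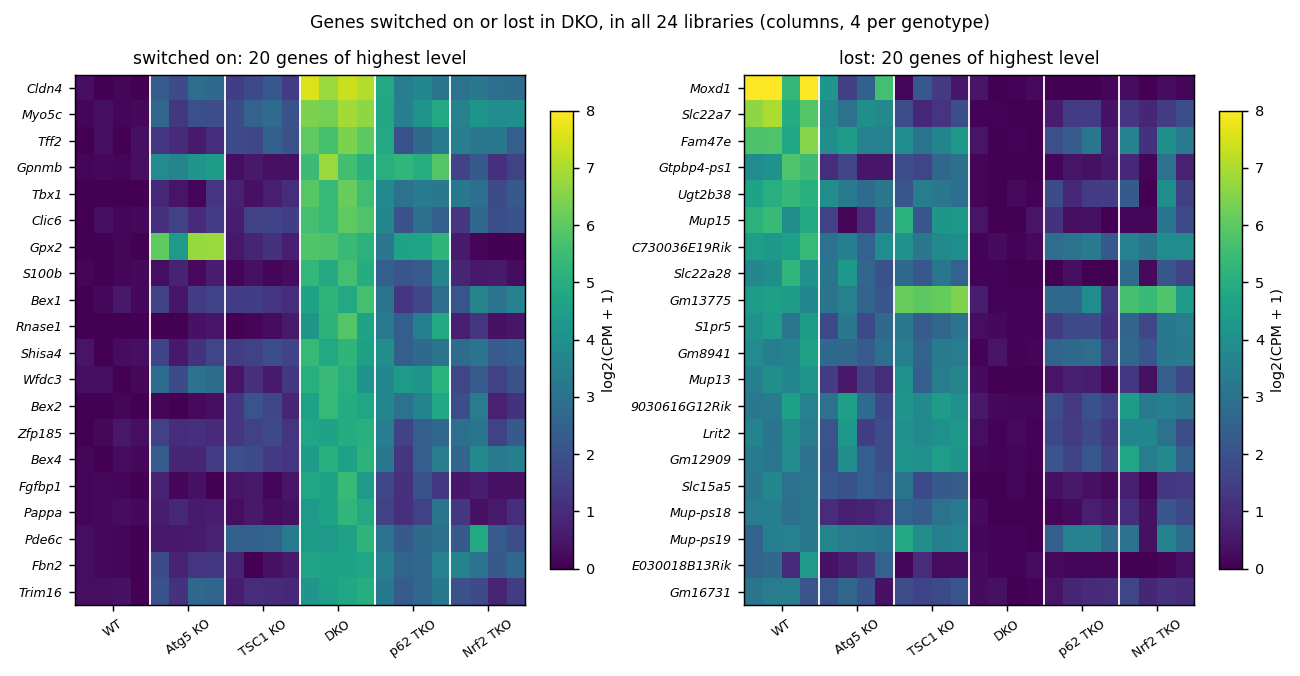
Level as log2(CPM + 1) in each of the 24 libraries (columns, 4 per genotype) of the 20 genes with the most counts among those that came on in DKO (left) and those lost in DKO (right). The DKO columns are the bright block on the left and the dark block on the right, while the single and triple knockouts lie between WT and DKO for most genes. Gpx2 and Gpnmb are also bright in Atg5 KO.

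Hepatocyte identity genes fell together. Of 30 tested members of a list of hepatocyte transcription factors and secreted proteins, 29 fell (32.3% of all genes did) and 0 rose, with a median log2 fold change of -2.38 beside 0.08 for all genes, and 24 were also lower with total counts. Hnf4a, the hepatocyte nuclear receptor, was at 900, 962, 921 and 836 CPM in WT and at 213, 259, 217 and 264 CPM in DKO (-1.92 ± 0.25). The groups were far apart, and Hnf4a had the same order with total counts (-0.94). Fabp1, which binds fatty acids, fell from 2765 ± 587 to 52.6 ± 44.2 CPM (-5.72 ± 0.48), and the genes of fibrinogen beta chain (Fgb) and albumin fell in every DKO library. Prox1, a developmental regulator of hepatocytes, was at 133 ± 59.2 CPM in WT and 145 ± 65.3 CPM in DKO. It was not called with TMM (0.13) and was higher with total counts (1.15). In bulk RNA, fewer cells of a type and less RNA per cell cannot be told apart. The list took 11.4 ± 0.803% of all counts in WT and 4.14 ± 0.453% in DKO.

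Genes of both metabolic zones of the lobule fell. Of 22 pericentral genes 20 fell (median -3.55), among them Cyp2e1, the ethanol-oxidising cytochrome, which was at 6353, 6725, 6112 and 8596 CPM in WT and at 244, 262, 148 and 153 CPM in DKO (-5.10 ± 0.28). Nkd1, a Wnt feedback inhibitor, was the 1 pericentral gene that rose (1.56). Of 26 periportal, urea cycle and amino acid genes 24 fell and 0 rose (median -2.73). Cps1, the entry enzyme of the urea cycle, was at 5953, 5868, 3935 and 3262 CPM in WT and at 620, 585, 390 and 786 CPM in DKO (-3.0 ± 0.35). Hsd17b13 and Aldh1b1 were not called with TMM (0.10 and -0.11) and were higher with total counts (1.09 and 0.88).

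Genes of bile acid uptake and synthesis fell, while 2 export pumps of the basolateral membrane rose. Of 23 bile acid genes 19 fell, including the uptake carriers Slc10a1 (-4.83) and Slco1b2 (-4.48), the canalicular pump Abcb11 (-4.57) and Cyp7a1, the rate-limiting enzyme of bile acid synthesis (128 ± 92.8 to 15.8 ± 2.71 CPM). The 2 that rose were the export pumps Abcc3 (0.85) and Abcc4 (6.38). Of 32 drug metabolism genes 28 fell (median -2.62), and the 2 that rose were Cyp2a5, from 292 to 1180 CPM (2.01), and Cyp2b9 (6.04). Across families, 48 of 71 cytochromes P450 fell and 11 rose, 13 of 16 UDP-glucuronosyltransferases fell and 1 rose, and 14 of 16 carboxylesterases fell and 0 rose.

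Lipid genes fell on both sides of metabolism. Of 33 genes of lipogenesis and cholesterol synthesis 30 fell and 0 rose (median -1.66), with Thrsp, a lipogenic regulator, at 452, 426, 167 and 465 CPM in WT and 4.22, 2.47, 1.15 and 0.95 CPM in DKO (-7.43 ± 0.79). Fasn, fatty acid synthase, fell from 640 ± 275 to 130 ± 22.2 CPM (-2.30 ± 0.32). Of 28 genes of PPARA and fatty acid oxidation 21 fell (median -1.68), among them Ppara itself (-2.65). The 4 that rose were Cd36 (0.87), Pdk4 (1.67), Acot2 (2.33) and Fgf21 (2.45), a fatty acid transporter, a pyruvate dehydrogenase kinase, a thioesterase and a hormone. Apolipoprotein genes fell in 20 of 22, of which 12 were lower with total counts.

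Secreted defence proteins were among the deepest losses. Of 24 acute phase genes 23 fell and 0 rose (median -3.73). The serum amyloid gene Saa2 was at 6388, 4483, 561 and 35280 CPM in WT and at 42.6, 8.48, 4.27 and 1.45 CPM in DKO (-9.69 ± 2.03, edgeR adjusted p = 0.0003). WT library 4 was far above the other WT libraries for Saa2 and for Saa1 (27650 CPM against 783 to 6362 CPM), and the acute phase list took 16.3% of its counts against 4.98 to 8.25% in the other 3. Of 34 coagulation and complement genes 31 fell (median -2.71), with C8a at -7.85 and C9 at -4.60. The 3 that rose encode the C1q chains that macrophages make, C1qa (1.45), C1qb (1.45) and C1qc (1.25).

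**Figure D4:**
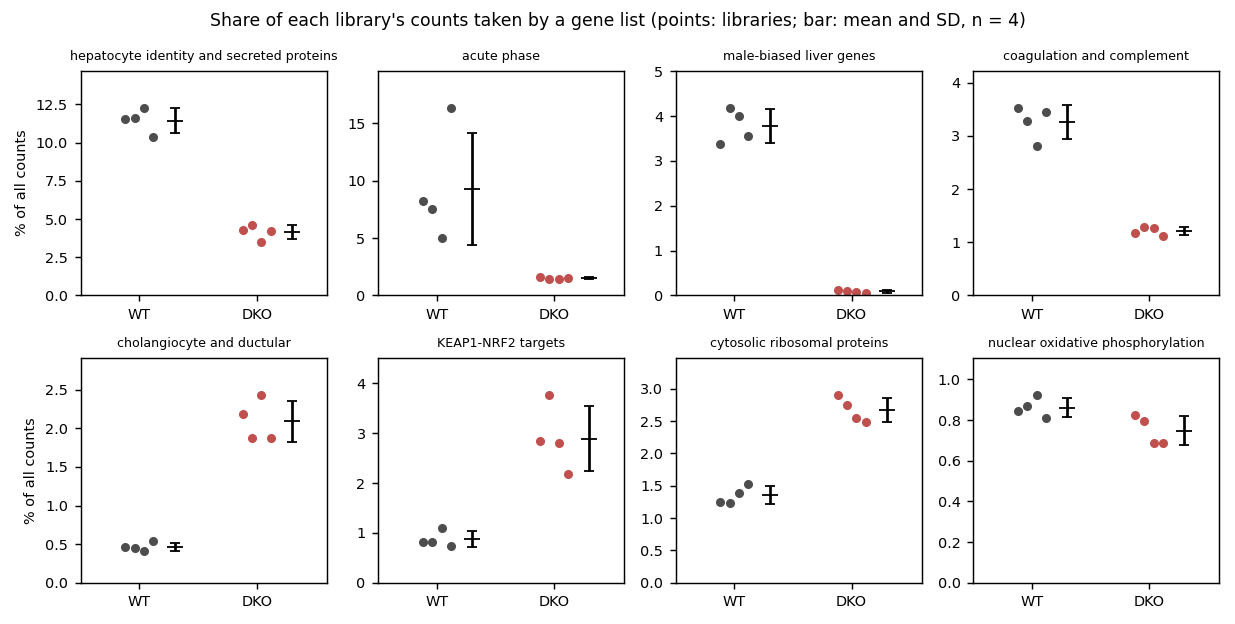
Percent of all counts (y axes from 0) taken by 8 gene lists in each WT and DKO library (points), with mean and SD, n = 4. Hepatocyte, acute phase, male-biased and coagulation lists take a smaller share in every DKO library, and ductular, NRF2 target and cytosolic ribosomal protein lists a larger one. For nuclear oxidative phosphorylation the groups overlap at this scale, with 0.809 to 0.922% in WT and 0.686 to 0.826% in DKO.

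Genes that differ between male and female liver shifted strongly. All 27 male-biased genes tested fell, with a median of -6.25, and 26 of them were lower with total counts. Mup3, a major urinary protein, was at 9663, 9787, 10430 and 11250 CPM in WT and at 77.6, 4.36, 6.87 and 12.7 CPM in DKO (-8.66 ± 0.90), with DKO library 1 the highest of the 4. Across the Mup family 21 of 22 genes fell (median -7.92, or -7.78 with genes at 0 counts set to their bound), and reads may again be shared between copies. Of 22 female-biased genes 10 rose and 6 fell (median 1.72), shares of 45.5% and 27.3% beside 37.1% and 32.3% of all genes. Cyp2a4, a female-biased steroid hydroxylase, was at 4.08, 1.38, 0.11 and 0.97 CPM in WT and at 189, 393, 52.4 and 58.8 CPM in DKO (6.73 ± 1.15), but it is near-identical to Cyp2a5 and was higher still in Atg5 KO (1689 CPM). The Y-linked gene Ddx3y was at 96.3 to 102 CPM in WT and 55.7 to 61.9 CPM in DKO, groups that did not overlap. It was not called in the fit of all 24 libraries (-0.76, edgeR adjusted p = 0.26; 0.23 and not called with total counts), which share 1 estimate of the spread and include an Nrf2 TKO library at 0.371 CPM, and it was called lower in a fit of the 8 WT and DKO libraries alone (-0.77, edgeR adjusted p = 1.4e-05). Xist stayed at 0.53 CPM or below in all 8 libraries.

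Genes of bile duct epithelium rose as a group. Of 34 tested ductular genes 31 rose (37.1% of all genes did) and 2 fell, with a median of 4.78, and the list went from 0.464 ± 0.0553% to 2.09 ± 0.267% of all counts. Krt7, a duct keratin, was at 1.58, 1.15, 1.06 and 1.34 CPM in WT and at 148, 131, 150 and 135 CPM in DKO (6.77 ± 0.36). Epcam, an epithelial adhesion protein, was at 1.02, 2.08, 1.80 and 1.09 CPM in WT and at 105, 80.2, 93.0 and 89.2 CPM in DKO (5.92 ± 0.41). Both were tight within each group. Transcription factors of ducts moved as well: Sox9 from 10.2 ± 4.07 to 163 ± 20.1 CPM and Sox4 from 0.76 ± 0.388 to 86.1 ± 10.8 CPM, with Ehf and Elf3 at 6.56 and 4.71. The chloride channel Cftr (7.20) and the secretin receptor Sctr (6.78), both of mature ducts, rose too. The 2 that fell were Onecut1 (-2.26), a factor of hepatocytes and ducts, and Ambp (-2.47), which hepatocytes also secrete, and Onecut2 was not called with TMM (-0.16) and was higher with total counts (0.84).

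Oncofetal genes rose in 24 of 26, with a median of 4.73. Beside H19, the growth factor Igf2 was at 0.23, 0.58, 0.53 and 0.24 CPM in WT and at 24.9, 12.8, 46 and 11.4 CPM in DKO (5.87 ± 0.88), and Afp, the fetal albumin, at 1.47, 3.58, 2.11 and 2.80 CPM in WT and at 14.5, 39.1, 31.4 and 23.4 CPM in DKO (3.44 ± 0.55). The DKO libraries spread about 4-fold for Igf2 and less for Afp, all of them above WT. H19 was at 387 CPM in p62 TKO and 31.0 CPM in Nrf2 TKO, and Igf2 at 3.93 and 1.19 CPM. The imprinted gene Peg3 (4.94) and the desaturase Scd2 (5.59) rose with them, and Glul, which is also a pericentral gene, was the 1 that fell (-2.03).

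Targets of YAP and TEAD, the effectors of the Hippo pathway that respond to cell density and tension, rose in 22 of 27 (median 1.97). Ankrd1, a classic target, was at 0.68, 0.81, 1.16 and 0 CPM in WT and at 111, 246, 238 and 242 CPM in DKO (8.25 ± 0.67), with DKO library 1 the lowest. Ccn2, a matricellular protein, rose from 7.0 to 138 CPM (4.29) and the ligand Jag1 from 5.08 to 66.7 CPM (3.71). The TEAD factors Tead1, Tead2 and Tead4 rose (3.05, 5.16 and 4.94). Tead3 was not called with TMM (0.10) and was higher with total counts (1.09). Yap1 itself was lower with TMM (-0.63) and higher with total counts (0.36), and Fgf1 fell (-2.88). The Ankrd1 promoter (GRCm38.p6, chr19:36119845-36120094, minus strand) is shown because Ankrd1 had a large fold change within this list, with the TEAD letters GGAATG in capitals at 210 and 123 bases before the start.
Ankrd1: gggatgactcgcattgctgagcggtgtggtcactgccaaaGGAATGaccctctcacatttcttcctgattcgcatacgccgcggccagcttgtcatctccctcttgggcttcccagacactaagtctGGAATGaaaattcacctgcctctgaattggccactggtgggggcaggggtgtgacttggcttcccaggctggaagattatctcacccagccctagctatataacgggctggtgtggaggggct
GGAATG on either strand occurs in 12.6% of all promoters and in 11 of 23 promoters (47.8%) found for 19 of the 27 genes, whose members were picked as known targets. Genes that rose more than 32-fold had it in 68 of 459 promoters (14.8%), and genes that fell more than 32-fold in 27 of 144 (18.8%).

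Targets of KEAP1 and NRF2 rose in 25 of 46 (54.3%) and fell in 12 (26.1%) with TMM (median 0.81). Of all genes 37.1% rose and 32.3% fell. With total counts 36 targets were higher and 1 lower, where 70.3% and 11.2% of all genes were. Nqo1, a quinone reductase, was at 5.43, 5.07, 4.86 and 5.71 CPM in WT and at 79.1, 105, 80.5 and 57.3 CPM in DKO (3.93 ± 0.41). Slc7a11, the cystine transporter that feeds glutathione synthesis, was at 0.45, 0, 0.21 and 0.36 CPM in WT and at 122, 228, 137 and 55.0 CPM in DKO (8.99 ± 0.85). Abcc4, an export pump, was at 2.83, 1.61, 2.54 and 1.46 CPM in WT and at 148, 191, 224 and 148 CPM in DKO (6.38 ± 0.45). None overlapped, and DKO library 4 was lowest for Nqo1 and Slc7a11. Cbr3, a carbonyl reductase (6.68), G6pdx, the entry enzyme of the pentose phosphate pathway (4.31), Srxn1, a sulfiredoxin (2.53), and the glutathione transferases Gsta1 (5.56) and Gstm3 (2.72) rose too. Hmox1 and Txnrd1 were not called with TMM (0.72 and 0.33) and were higher with total counts (1.7 and 1.32). Gstp1 fell with TMM (-1.61). Gclm and Prdx1 were lower with TMM (-0.63 and -0.72) but not with total counts (0.36, called higher, and 0.26, not called).

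DKO exceeded the single Atg5 KO in few of the NRF2 targets named. Nqo1 was at 102 CPM in the Atg5 KO and 80.4 in DKO, with 8.24 in the TSC1 KO, 65.2 in the p62 TKO and 3.82 in the Nrf2 TKO, and its DKO and Atg5 KO levels did not differ beyond the threshold (-0.34, edgeR adjusted p = 0.41). Slc7a11 was at 185, 135, 0.63, 193 and 1.33 CPM in the same order (DKO minus Atg5 KO -0.45, edgeR adjusted p = 0.45), and Abcc4 at 155, 178, 5.97, 106 and 6.42 CPM (0.20, edgeR adjusted p = 0.63). Srxn1 was lower in DKO than in Atg5 KO (289 against 658 CPM, -1.19, edgeR adjusted p = 0.0054). These 4 genes were called lower in Nrf2 TKO than in DKO by edgeR, with log2 fold changes from -2.81 to -6.69. The Abcc4 promoter (GRCm38.p6, chr14:118706220-118706469, minus strand) is shown because it holds the letters of the antioxidant response element, TGACNNNGC, here on the opposite strand and in capitals, at 25 bases before the start.
Abcc4: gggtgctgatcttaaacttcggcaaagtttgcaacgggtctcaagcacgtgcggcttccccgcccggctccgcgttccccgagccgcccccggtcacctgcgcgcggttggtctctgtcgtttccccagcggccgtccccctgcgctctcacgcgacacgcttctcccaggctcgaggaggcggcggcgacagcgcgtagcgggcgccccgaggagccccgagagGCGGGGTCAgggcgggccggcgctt
These letters occur in 10.2% of all promoters and in 9 of 53 promoters (17%) found for 41 of the 46 genes.

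Of 51 autophagy and lysosome genes tested 18 rose (35.3%) and 15 fell (29.4%) with TMM (median 0.09), close to the 37.1% and 32.3% of all genes. With total counts 45 were higher and 1 lower, where 70.3% and 11.2% of all genes were, so these counts depend on the scaling. Ctsd, the main aspartic protease, was at 206, 196, 210 and 214 CPM in WT and at 483, 494, 428 and 379 CPM in DKO (1.11 ± 0.14). The groups did not overlap. Of the same list Gpnmb, a membrane glycoprotein, rose the most (8.58), and Hexa (1.46), Galns (1.32), Npc2 (1.12), Neu1 (1.11) and Map1lc3b, which encodes LC3B (0.78), rose too. Of 13 cathepsins 7 rose and 3 fell with TMM, and 12 were higher and 0 lower with total counts. Atg3 and Atg9a fell with TMM (-1.46 and -1.35), and Tfeb, Tfe3 and Lamp1 were not called with TMM (-0.29, -0.24 and -0.29) and were higher with total counts (0.71, 0.74 and 0.70). The Ctsd promoter (GRCm38.p6, chr7:142387828-142388077, minus strand) is shown because it holds the E-box letters CACGTG that TFEB and related factors read, in capitals at 245 and 98 bases before the start.
Ctsd: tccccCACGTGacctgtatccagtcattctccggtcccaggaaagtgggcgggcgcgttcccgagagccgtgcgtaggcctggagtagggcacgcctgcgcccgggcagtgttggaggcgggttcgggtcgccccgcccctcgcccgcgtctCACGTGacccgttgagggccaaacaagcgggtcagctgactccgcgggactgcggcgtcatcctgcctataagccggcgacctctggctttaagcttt
CACGTG occurs in 6.02% of all promoters and in 12 of 45 promoters (26.7%) found for 38 of the 51 genes. V-ATPase subunits, which acidify lysosomes, rose in 12 of 20 and fell in 2 with TMM, and all 20 were higher with total counts.

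Of 31 mTORC1, TSC and Rag genes 10 rose (32.3%) and 12 fell (38.7%) with TMM (median -0.10), and 23 were higher and 0 lower with total counts, shares near those of all genes for the higher calls (37.1% with TMM and 70.3% with total counts). Rragd, a Rag GTPase that recruits mTORC1 to lysosomes, was at 1.13, 3.11, 1.58 and 1.09 CPM in WT and at 142, 172, 178 and 167 CPM in DKO (6.56 ± 0.41), and it was at 49.2 CPM in Atg5 KO, 40.4 in TSC1 KO and 33.6 in Nrf2 TKO. Rragb was at 0 counts in WT and 2.14 CPM in DKO. Sestrins and Ddit4, which restrain mTORC1 under stress, rose (Sesn2 2.21, Sesn3 2.24, Ddit4 2.41). Mtor, the kinase, was lower with TMM (-0.38) and higher with total counts (0.61). Its partner Rptor was lower with TMM (-0.79) and not called with total counts (0.20), and Tsc2 was not called with TMM (-0.10) and was higher with total counts (0.89).

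Targets of ATF4, the transcription factor of amino acid stress, rose in 22 of 39 (56.4%) and fell in 10 (25.6%) with TMM (median 0.84). Of all genes 37.1% rose and 32.3% fell. With total counts 30 targets were higher and 4 lower, where 70.3% and 11.2% of all genes were. Nupr1, a stress cofactor, was at 1.70, 1.5, 1.16 and 1.09 CPM in WT and at 392, 215, 263 and 442 CPM in DKO (7.90 ± 0.46). Phgdh, the first enzyme of serine synthesis, was at 0.34, 0.23, 0.11 and 0.24 CPM in WT and at 45.7, 42.4, 48.6 and 32.9 CPM in DKO (7.48 ± 0.54), and Psat1, the second, rose from 0.97 ± 0.298 to 35.3 ± 7.38 CPM (5.18). Nupr1 and Phgdh were lower in both single knockouts (largest edgeR adjusted p 3.8e-09), at 2.70 and 0.79 CPM in Atg5 KO and 21.2 and 1.17 CPM in TSC1 KO. Aldh18a1 of proline synthesis (4.11) and the arginine carrier Slc7a1 (4.54) rose, whereas Atf4 was not called with TMM (-0.19) and was higher with total counts (0.79). In the same list the transfer RNA synthetase genes Aars and Tars fell (-1.85 and -1.88), as did Shmt2 (-2.30). The Slc7a11 promoter (GRCm38.p6, chr3:50443614-50443863, minus strand) is shown because Slc7a11 is on both this list and that of NRF2, with the amino acid response letters TGATGNAAN in capitals on either strand at 66 and 48 bases before the start.
Slc7a11: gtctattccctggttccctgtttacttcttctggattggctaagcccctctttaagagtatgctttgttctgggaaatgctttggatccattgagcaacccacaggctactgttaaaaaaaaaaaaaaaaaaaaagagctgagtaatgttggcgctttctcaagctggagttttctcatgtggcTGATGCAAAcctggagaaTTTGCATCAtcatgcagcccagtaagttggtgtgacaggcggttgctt
These letters occur in 3.44% of all promoters and in 10 of 39 promoters (25.6%) found for 32 of the 39 genes. Genes that rose more than 32-fold had them in 8 of 459 promoters (1.74%), and genes that fell more than 32-fold in 22 of 144 (15.3%).

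**Figure D5:**
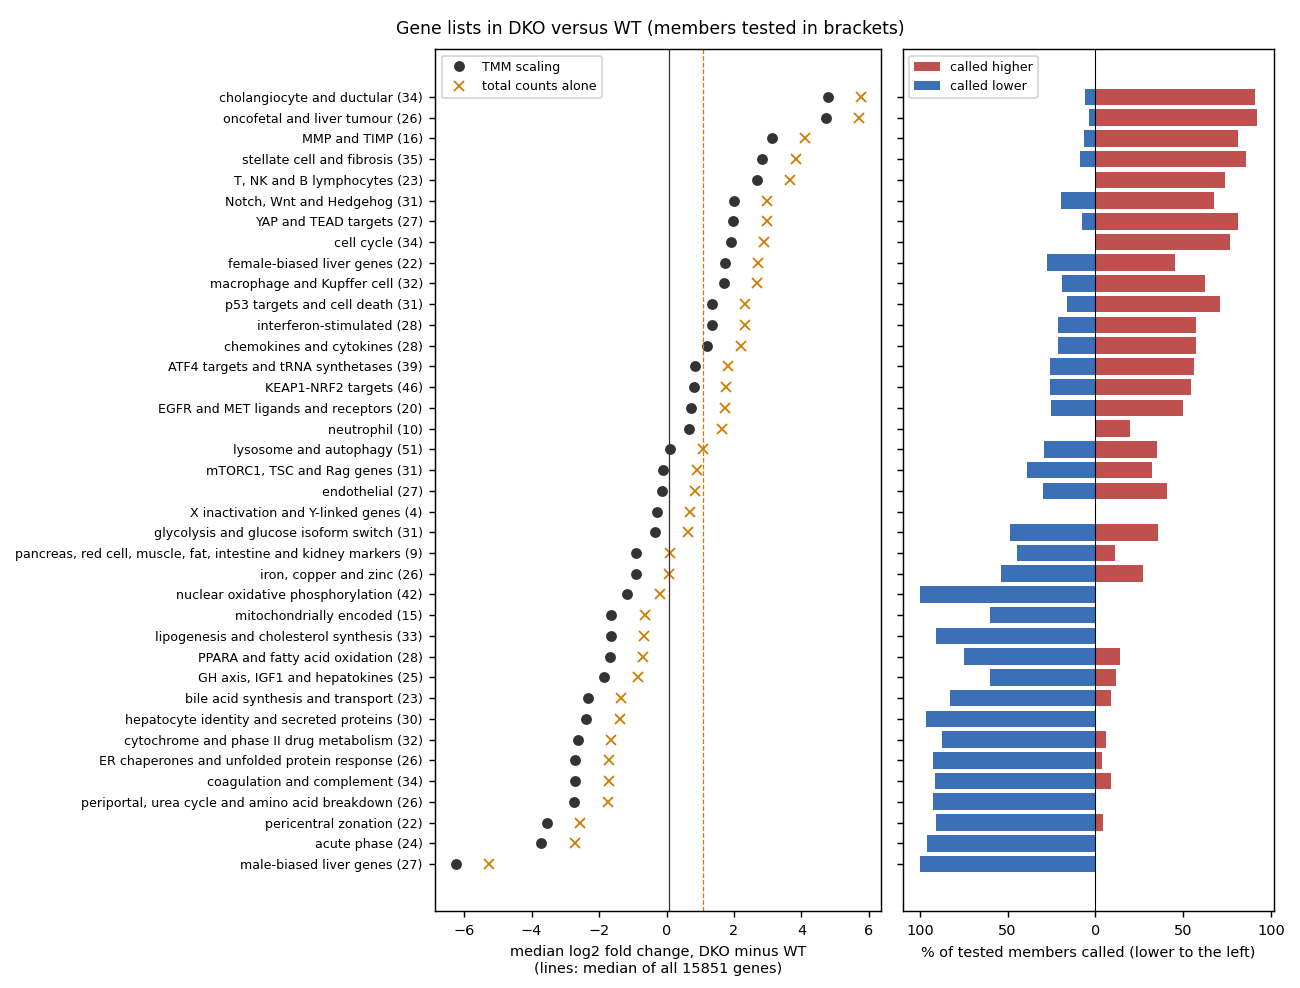
Left, median log2 fold change (DKO minus WT) of 38 gene lists with TMM (circles) and total counts alone (crosses), with lines at the median of all 15851 genes. Right, percent of tested members called higher (right of 0) and lower (left of 0) with TMM. Ductular and oncofetal lists lie at the top at 4.78 and 4.73 and male-biased genes at the bottom at -6.25, and lists near 0 change sign with the scaling.

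Most genes of endoplasmic reticulum chaperones and of mitochondrial energy production were lower in DKO. Of 26 chaperones and unfolded protein response genes of the endoplasmic reticulum 24 fell (median -2.70), 19 of them with total counts too. Hspa5 (BiP, the main chaperone there) was at 2691, 2664, 3294 and 1572 CPM in WT and at 270, 338, 252 and 266 CPM in DKO (-3.18 ± 0.28), while Eif2ak3, which encodes the stress kinase PERK, was the 1 that rose (1.57). All 42 nuclear genes of oxidative phosphorylation tested fell with TMM (median -1.16), and with total counts 16 were lower and 0 higher. Sdha, a succinate dehydrogenase subunit, was at 658, 707, 631 and 547 CPM in WT and at 188, 194, 186 and 172 CPM in DKO (-1.78 ± 0.16). Of 15 mitochondrially encoded genes 9 fell and 0 rose (median -1.66), with mt-Co1 at 15950 ± 3510 and 5579 ± 1400 CPM. Of 77 mitochondrial ribosomal proteins 60 fell with TMM, although 36 were higher with total counts, where 70.3% of all genes were. The 77 cytosolic ribosomal proteins had a median of 0.01 with TMM and 73 higher calls with total counts.

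Of 31 genes of glycolysis and glucose use 11 rose (35.5%) and 15 fell (48.4%) with TMM, beside 37.1% and 32.3% of all genes, and with total counts 15 were higher and 9 lower. Those that fell include ketohexokinase Khk (-3.33) and pyruvate kinase Pklr (-2.26), and those that rose include Hk2 (3.31), Pfkp (3.90), Pkm (2.33), Aldoa (1.70), Ldhb (3.65) and Eno2 (4.35). The proteasome was lower in 35 of 47 subunits with TMM (median -0.66, beside 0.08 for all genes). With total counts 27 were higher (median 0.33, beside 1.07 for all genes), where 70.3% of all genes were. The sign of its change thus depends on the scaling, but its median lay below that of all genes with both.

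Genes of other liver cells also differed. Of 35 stellate cell and fibrosis genes 30 rose (median 2.84). Col1a1, the main fibrillar collagen, was at 7.47, 6.23, 9.41 and 10.2 CPM in WT and at 96.7, 112, 137 and 119 CPM in DKO (3.80 ± 0.36), and was at 70.0 CPM in Atg5 KO and 14.5 in TSC1 KO. Timp1, a protease inhibitor, was at 0.34, 0.23, 0.21 and 0.12 CPM in WT and at 8.84, 7.89, 7.54 and 4.56 CPM in DKO (4.93 ± 0.42). Neither overlapped, and DKO and Atg5 KO did not differ beyond the threshold for Col1a1 (0.73, edgeR adjusted p = 0.051). The ligand Tgfb2 rose from 0.68 to 75.9 CPM (6.78), and 13 of 16 MMP and TIMP genes rose. The stellate cell genes Lrat, Reln and Ngfr were lower with TMM (-0.97, -1.27 and -1.43) but not called with total counts (0.02, -0.30 and -0.45), and Des was not called with TMM (0.25).

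Macrophage genes moved both ways, with 20 of 32 higher (62.5%) and 6 lower (18.8%), beside 37.1% and 32.3% of all genes. The 6 that fell are Kupffer cell genes: Cd163 was at 19.7, 14.9, 10.7 and 13.6 CPM in WT and at 0.63, 0.71, 0.21 and 2.30 CPM in DKO (-3.91 ± 0.57), with Timd4 (-3.88), Clec4f (-3.56), Cd5l (-3.08), Marco (-2.47) and Vsig4 (-1.78). Cd163 was low in all knockouts, at 1.91 CPM in Atg5 KO and 1.73 in TSC1 KO, and did not differ between DKO and either beyond the threshold (edgeR adjusted p = 0.16 and 0.22). Genes of recruited and lipid-laden macrophages rose: Trem2 was at 0.57, 0.23, 0.85 and 1.34 CPM in WT and at 19.1, 16.2, 21.4 and 11.4 CPM in DKO (4.50 ± 0.40), with the chemokine receptors Cx3cr1 (4.43) and Ccr2 (3.98) and the galectin Lgals3 (3.75). The ligand Ccl2 rose from 3.75 to 58.0 CPM (3.93).

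Lymphocyte genes rose in 17 of 23 and fell in 0, led by Cd8a (5.05), the immunoglobulin chain Igkc (13.5 to 237 CPM, 4.13) and Jchain (4.60), while Cd4 and Ms4a1 were not called (-0.84 and -0.70 with TMM, 0.14 and 0.26 with total counts). Of 10 neutrophil genes 2 rose (20%, beside 37.1% of all genes) and 0 fell. Interferon-stimulated genes rose in 16 of 28 (57.1%) and fell in 6 (21.4%) with TMM, beside 37.1% and 32.3% of all genes. With total counts 20 were higher and 0 lower, where 70.3% and 11.2% of all genes were. Ifit2 was at 4.90 and Mx1 at 3.27 with TMM. Chemokines and cytokines also rose in 16 of 28 and fell in 6 with TMM, and 19 were higher and 1 lower with total counts. Among them the ligand Cxcl16 was at 3.61 and Cxcl1, a ligand for neutrophils, at -3.42. Of 27 endothelial genes 11 rose and 8 fell, shares of 40.7% and 29.6% that are near those of all genes: sinusoidal genes such as Clec4g (-2.26), Dnase1l3 (-2.10) and Stab2 (-1.0) fell with TMM, and Cd34 (4.10) and Vwf (1.97) of larger vessels rose. Of 9 markers of pancreas, red cells, muscle, fat, intestine and kidney tested, 4 fell and 1 rose, the villus gene Vil1 (4.60).

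Most genes of cell division and many of cell death rose, beside 37.1% of all genes. Of 34 cell cycle genes 26 rose and 0 fell (median 1.92). Mki67, a marker of cycling cells, was at 1.58, 0.81, 1.16 and 0.73 CPM in WT and at 14.4, 22, 23 and 9.16 CPM in DKO (3.98 ± 0.51), and Top2a went from 0.75 ± 0.501 to 14.8 ± 6.12 CPM (4.26). Neither overlapped, and DKO did not differ from Atg5 KO beyond the threshold for Mki67 (0.49, edgeR adjusted p = 0.30). Of 31 p53 and cell death genes 22 rose and 5 fell (median 1.35). Cdkn1a, the p21 inhibitor, was at 11.6, 16, 6.55 and 0.61 CPM in WT and at 89.1, 47.2, 56.7 and 86.5 CPM in DKO (3.0 ± 0.64), and Phlda3 (5.15), Pmaip1 (5.28) and Cdkn2b (5.17) rose, while Mdm2 and Bbc3 were not called with TMM (0.14 and 0.34).

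Receptors and ligands of growth factor pathways moved both ways, with 10 of 20 genes of the EGFR and MET group higher and 5 lower (50% and 25%, beside 37.1% and 32.3% of all genes). Egfr was at 1183, 1129, 868 and 1351 CPM in WT and at 51.0, 49.8, 41.8 and 87.8 CPM in DKO (-4.30 ± 0.54), whereas its relatives Erbb2 (4.52) and Erbb4 (3.80) and the ligands Hbegf (4.0), Nrg1 (4.65) and Btc (2.61) rose. Of 31 Notch, Wnt and Hedgehog genes 21 rose (67.7%) and 6 fell (19.4%). Those that rose include Wnt4, from 2.94 to 237 CPM (6.34), Wnt7b (6.26), Jag2 (5.95) and the Notch target Hes1 (3.43). The endothelial ligands Wnt2 and Wnt9b fell (-2.67 and -2.0). In the growth hormone axis 15 of 25 genes fell (60%) and 3 rose (12%). Igf1 was at 678, 590, 714 and 857 CPM in WT and at 156, 137, 107 and 116 CPM in DKO (-2.46 ± 0.20), and the receptor Ghr fell (-3.05), while the binding protein Igfbp3 rose from 10.7 to 217 CPM (4.34). Of 26 iron, copper and zinc genes 7 rose (26.9%) and 14 fell (53.8%) with TMM, beside 37.1% and 32.3% of all genes. With total counts 10 were higher and 7 lower, where 70.3% and 11.2% of all genes were. Hamp, the iron hormone hepcidin, fell from 1059 ± 237 to 175 ± 70.1 CPM (-2.60) and its inducer Bmp6 rose (4.66). Mt2 was at 82.5, 38.8, 0.74 and 752 CPM in WT, a spread so wide that no difference was called.

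Most tested members of several gene families rose, beside 37.1% of all genes. Only 3 of 12 mucins, 8 of 35 keratins, 9 of 21 clade B serpins and 16 of 58 protocadherins were tested. A member near 0 in WT passes the filter on low counts only if it is higher in another genotype, so these shares are a description. The mucins rose in 3 of 3, keratins in 7 of 8 (median 4.16), clade B serpins in 8 of 9 (median 4.18, or 4.09 with genes at 0 counts at their bound), laminins in 9 of 11, annexins in 8 of 11, integrins in 18 of 29, collagens in 22 of 31, protocadherins in 13 of 16, tetraspanins in 12 of 17 and ephrins and Eph receptors in 10 of 15. Itgb4 and Itgb6, integrin chains of epithelium, rose by 6.70 and 5.43, Lama5, a laminin chain of basement membrane, by 6.08, and Anxa3 and Anxa2 by 5.88 and 3.81. Claudins divided, with Cldn4, Cldn7 (5.80) and Cldn6 (5.42) higher and Cldn14 (-2.80) and Cldn1 (-1.65) lower. Glutathione transferases rose in 7 of 18 (38.9%, near the share of all genes) and fell in 6 with TMM, with 0 lower on total counts. Of 271 tested SLC carriers 100 rose (36.9%, also near that share) and 111 fell (41.0%, beside 32.3% of all genes) with TMM, from Slc7a11 to Slc22a7, and 164 were higher and 59 lower with total counts (70.3% of all genes were higher). Clade A serpins, secreted by hepatocytes, fell in 17 of 18 (median -3.48).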

How the data were processed

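RNA of 24 liver samples labelled with 6 genotypes was sequenced as 75-base single reads. The authors deposited raw counts per gene. Per the submitters' processing notes, reads were trimmed with Trimmomatic 0.36 and aligned to GRCm38 with HISAT2 2.1.0, and HTSeq is named. No source used here names an HTSeq version, annotation release or strand setting, so reads of genes that overlap on opposite strands may be shared. Symbols came from GENCODE M21 for 32953 of 33019 gene IDs, leaving 66 without. Promoters came from RefSeq.

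The 24 libraries were fitted in 1 edgeR 4.0.16 quasi-likelihood model (R 4.3.3) with TMM scaling and its default filter on low counts, giving 15851 genes and 18 residual degrees of freedom. Genes with a Benjamini-Hochberg adjusted p under 0.05 were called. The procedure was tested on simulated data. The labels do not say how the samples of a group are related, so a p-value reflects only how these samples spread.

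The members and the gene lists were chosen with earlier results of these data known. Named genes were the targeted genes, the largest changes in fold and in CPM among genes whose groups did not overlap, and the smallest p, highest level and opposite-direction members of each list. Other genes named were picked after their values were seen. Replicate numbers did not pair the samples. Alternatives were DESeq2 1.42.0, other scalings, no filter, fewer libraries and a replicate block.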

Additional observations from a re-analysis of the deposited data

Results flagged for a closer look

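The named genes gave 488 groups of 4 libraries, and groups in which no library reached 10 counts were skipped. Among the groups left, 26 held 1 library far from the other 3, with most of the range lying in that gap. Chance gives this in about 1 group in 20, a rate that 26 in 488 cannot be set against because of the skipped groups.

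WT library 4 stood apart for 4 genes: Saa2 was at 35278 CPM there against 561 to 6388 CPM in the other WT libraries, Mt2 at 752 against 0.74 to 82.5, Abcb11 at 485 against 981 to 1020, and Srxn1 at 37.0 against 52.7 to 55.4. WT library 3 stood apart for 9030616G12Rik (22.1 against 8.27 to 10.6 CPM), Apoe (26855 against 22046 to 22733), Hist1h2bq (19.98 against 0 in all others), Slc22a28 (37.2 against 12.1 to 15.7), Spp1 (50.3 against 73.7 to 76.1), Thrsp (167 against 426 to 465) and Wnt2 (3.28 against 1.22 to 1.5). Hamp was at 1411 CPM in WT library 1 against 896 to 975, and Tsc2 at 59.5 in WT library 2 against 55.9 to 56.5.

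DKO library 1 was high for 4 genes that fell, with Mup3 at 77.6 CPM against 4.36 to 12.7, Saa2 at 42.6 against 1.45 to 8.48, Ces3a at 10.4 against 0.942 to 2.15 and Elovl3 at 1.14 against 0.10 to 0.26. It was low for Ankrd1 (111 against 238 to 246 CPM) and high for Cldn6 (26.9 against 20.5 to 21). DKO library 2 was low for Erbb4 (10.8 against 24.8 to 26.9 CPM) and Eno2 (2.12 against 3.37 to 3.45) and high for Des (7.89 against 6.35 to 6.56). DKO library 3 was high for Sox4 (102 against 79.1 to 81.8 CPM). DKO library 4 was high for Nfe2l2 (162 against 92.7 to 99.7 CPM), Onecut2 (230.0 against 187 to 193) and Pmaip1 (40.9 against 26.3 to 26.8).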

How the results depend on the processing

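With total counts alone 11151 genes were called higher and 1770 lower, the genes that came on numbered 298 in place of 149, and those lost 16 in place of 28. Over leave-one-out fits 5322 to 5761 genes were higher and 4770 to 5237 lower. Limits on level set the size of both groups of genes: under 0.1 and 0.5 CPM in the low group gave 72 and 308 that came on and 16 and 65 lost, and at least 2 and 10 CPM in the high group gave 367 and 73 that came on and 88 and 14 lost. Leaving out 1 library gave 146 to 166 that came on and 24 to 44 lost, and leaving out DKO libraries 1 and 2, chosen after seeing the data, gave 50 lost.

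Of 243 named genes compared over 15 alternatives, 201 kept their side of the threshold and, where called, their direction in all. In all but total counts 229 did. A gene called in neither of the fits compared counted as kept whatever its direction. With total counts the log2 fold change turned positive for Aldh1b1 (0.88), Apoe (0.06), Atf4 (0.79), Atg5 (0.79), Gclm (0.36), Lamp1 (0.70), Lrat (0.02), Mtor (0.61), Onecut2 (0.84), Prdx1 (0.26), Rheb (0.54), Rptor (0.20), Tfe3 (0.74), Tfeb (0.71), Tsc2 (0.89) and Yap1 (0.36), and for 3 genes called with neither scaling, Cd4 (0.14), Ddx3y (0.23) and Ms4a1 (0.26). Each gene lies about 1 log2 unit higher on total counts, and why the scalings differ was not tested. With the replicate block 10913 genes were called, 5848 higher and 5065 lower, and 10814 were shared with the fit without it. Same-numbered WT and DKO libraries deviated with correlations of -0.0433, -0.0588, -0.0196 and -0.0288. Genes with few counts in 1 group have no reliable fold.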
